A study of Rattus norvegicus with 6 samples.

Results

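Epithelial cells are marked by keratins of simple epithelia and by a set of surface proteins, and 6 such genes were followed here in rat fibroblasts: Krt8, Krt18, Epcam, Spint2, Cd24 and Cd9. Every probe set (a group of short array oligonucleotides read together as a single signal) that was assigned to exactly 1 gene with one of these symbols was taken, which gave 10 probe sets of 4818 tested and 6 genes of 2890 named. Krt8, Epcam and Spint2 had 1 probe set each, Krt18 and Cd9 had 2 and Cd24 had 3. The genes were selected on earlier results of these same arrays, in which several of them stood higher after drug treatment, so every treated against untreated value below is a description without a test. The rule names genes and not the values that chose them, so it is not known whether the comparisons of the cell lines with each other also entered the choice. These are tested here on the assumption that they did not, and if they did, their p-values for the 6 genes are too small. Even if they did not, they share arrays with the drug differences, so their p-values for the 6 genes are not independent of the choice.

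The study measured 6 RNA samples of rat fibroblast lines. The parent line 208F grows indefinitely without being transformed, and FE8 was derived from it by the HRAS oncogene. There was 1 array of untreated 208F, 1 of untreated FE8, 2 of 208F given 5-aza-2'-deoxycytidine at 0.3 µM for 96 h and 2 of FE8 given that dose for that time. The drug is a cytidine analogue that is built into DNA and traps DNA methyltransferases, so that methylation is lost as cells divide. Each state is represented by a single cell line, the labels name no further clone, and they do not say whether the duplicates were separate cultures, so errors and p-values cover only the differences among these samples, which could be technical.

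Keratins 8 and 18 are a type II and a type I intermediate filament protein that pair with each other to form the filaments of simple epithelia, and an unpaired keratin is degraded. EpCAM is a surface protein of epithelial cells that mediates contact between cells and takes part in signalling, and Spint2 encodes a membrane-bound Kunitz inhibitor of serine proteases such as those that activate hepatocyte growth factor. CD24 is a small, heavily glycosylated protein anchored in the membrane by a lipid, found on epithelial, neural and blood cells. CD9 is a tetraspanin, a protein that crosses the membrane repeatedly and gathers integrins and other partners into membrane domains, and it is not restricted to epithelia. Fibroblasts normally keep vimentin as their main filament protein and hold keratins, EpCAM and CD24 low.

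Because the drug acts on methylated CpG sites, the sequence around each gene's start was read from RefSeq (build GRCr8), and all 6 genes had an entry. Each window holds 250 bases before and 50 bases after the annotated start, and capitals mark each CG dinucleotide. The 4 windows printed are the keratin pair, which had the fewest CG, and Epcam and Cd24, which had the most. Krt8 lies at chr7:135010290-135010589, minus strand, Krt18 at chr7:135035918-135036217, plus strand, Epcam at chr6:12649629-12649928, minus strand, and Cd24 at chr20:48656227-48656526, plus strand.
Krt8: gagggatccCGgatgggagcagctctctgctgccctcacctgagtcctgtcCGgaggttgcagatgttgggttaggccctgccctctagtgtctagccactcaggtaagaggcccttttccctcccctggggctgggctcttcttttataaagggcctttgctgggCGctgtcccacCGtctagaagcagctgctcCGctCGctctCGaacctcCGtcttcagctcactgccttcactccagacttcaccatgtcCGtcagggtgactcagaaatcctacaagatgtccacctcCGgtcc
Krt18: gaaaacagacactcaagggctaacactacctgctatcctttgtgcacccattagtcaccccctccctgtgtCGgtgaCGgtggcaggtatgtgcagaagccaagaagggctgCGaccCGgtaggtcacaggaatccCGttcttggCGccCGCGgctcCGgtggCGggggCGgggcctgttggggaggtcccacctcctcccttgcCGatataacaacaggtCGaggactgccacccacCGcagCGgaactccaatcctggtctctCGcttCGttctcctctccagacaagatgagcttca
Epcam: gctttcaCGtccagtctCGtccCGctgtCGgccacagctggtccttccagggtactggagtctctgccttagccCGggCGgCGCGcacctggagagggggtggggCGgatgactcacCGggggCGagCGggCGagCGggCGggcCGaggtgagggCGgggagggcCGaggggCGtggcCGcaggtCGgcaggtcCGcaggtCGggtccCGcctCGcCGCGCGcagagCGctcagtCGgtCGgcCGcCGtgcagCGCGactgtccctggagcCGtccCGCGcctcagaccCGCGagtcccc
Cd24: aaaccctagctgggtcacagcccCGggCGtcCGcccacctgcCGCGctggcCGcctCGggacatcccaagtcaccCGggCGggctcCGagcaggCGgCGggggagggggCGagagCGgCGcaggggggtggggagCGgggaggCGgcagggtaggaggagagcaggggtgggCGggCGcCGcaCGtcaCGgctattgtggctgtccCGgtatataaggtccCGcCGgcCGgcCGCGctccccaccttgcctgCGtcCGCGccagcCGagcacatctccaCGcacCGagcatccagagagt

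The windows differed widely in CG content. The window of Krt8 held 10 CG, that of Krt18 17, those of Spint2 and Cd9 22 each, that of Cd24 34 and that of Epcam 40. The median was 21 over 2641 windows of genes on the array and 7 over 33469 windows of all rat genes, so both keratins lay below the first median and Cd24 and Epcam far above it. The ratio of observed to expected CG was lowest for Krt8, at 0.39, and highest for Epcam, at 0.94. The genes thus share no common CG density, and no methylation measurement was analysed here.

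Further motifs were searched on both strands. CACCTG, the E-box letters to which ZEB and SNAIL repressors bind, was in the windows of Krt8, Epcam, Spint2, Cd24 and Cd9 but not of Krt18, that is 5 of 6, and in 15.7% of the windows of genes on the array. Spint2 held it 3 times. GGGCGG, a GC box that contains a CG itself, was in every window except that of Krt8, against 62.8% of those of genes on the array. TGANTCA, the letters of an AP-1 site, was found in Krt8 and Epcam (5.6% of windows of genes on the array), and TATAAA in Krt8 (9.5%), where its forward and reverse matches overlap. A match describes letters only.

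Chip lots and run days are given as numbers that serve as labels, and no order in time is taken from them. A session here means a lot with its run day. Both untreated arrays had lot 1 and run day 1. Treated replicate 1 of 208F had lot 2 and a run day of its own, and the other 3 treated arrays had lot 3 and shared run day 3. No treated array shared a session with an untreated one, so a drug effect is not separable from a session effect in any treated against untreated value. The low end of the scale also differed between the untreated and the treated arrays. The 10th percentile of signal was 48 and 49 on the untreated arrays and between 65 and 86 on the treated ones. Of all probe sets, 13.3% and 13.5% lay below 64 untreated, against 7.0% to 9.7% treated. The part of this shift in the values of the keratin and surface genes was not tested. Median signals ranged from 354 to 422, the ratio of 5' to 3' beta-actin signal was 0.824 on the untreated 208F array and 0.351 to 0.529 on the others. That of GAPDH was 0.916 and 0.691 on the untreated arrays and 1.01 to 1.132 on the treated ones, which also differed in session. The part of this ratio in the drug differences was not tested. No probe set was named Hras. The number of arrays limits the precision.

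The fibroblast label was checked against markers, of which 12 of 20 were measured, none of them below 64 on all arrays. Vim (vimentin) had signals of 18849 and 16158 untreated and 7118 to 12816 treated, and Thy1, a fibroblast surface protein, lay between 2565 and 4342. Col1a1, a chain of type I collagen, was at 22282, 10923 and 6922 in 208F but at 131, 271 and 100 in FE8, so this defining marker was near the low end in FE8. Summed over the 12 markers, the 208F signals were 122227 without the drug and 96516 and 73424 with it, and the FE8 signals 61276 without it and 51165 and 58274 with it. Of other cell types, the keratinocyte keratin Krt10 was at 25 to 81, the 3 measured of 8 hepatocyte genes (Alb, Fgb and Fgg) at 22 to 125, and the 2 measured of 9 neural genes (Syp and Snap25) at 28 to 172. Of 7 endothelial genes, the receptor Kdr was at 2 to 84 and its relative Flt1 at 113 to 540. Flt1 was higher after treatment in FE8 (113 against 507 and 540, log2 difference 1.73 ± 0.36, adjusted p = 0.013 by limma) and did not pass in 208F (286 against 250 and 195), a difference between the lines that was not tested. Its part in the other results was not tested. None of 12 leukocyte genes was measured. In bulk RNA, a change in the number of cells that express a gene and a change in RNA per cell cannot be told apart.

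Krt8, the type II keratin, stood far higher on the treated arrays of both lines. It was read by a single probe set, S76054_s_at, whose suffix marks possible sharing between transcripts. Its signal was 159 in untreated 208F and 3250 and 2825 after treatment, and 131 in untreated FE8 and 3838 and 4077 after treatment. Every treated array lay far above both untreated ones, and the duplicates of a line differed by no more than 1.15-fold. The log2 difference of treated minus untreated, taken on signal plus 64, was 3.79 ± 0.27 (SE) in 208F and 4.37 ± 0.27 in FE8, the 12th and 9th highest of all 4818 probe sets. This is the only gene of the 6 whose untreated signals were above 64 on both untreated arrays in each of its probe sets, so its ratio depends least on the low end: the lower treated array was 17.8 times the untreated one in 208F and 29.3 times in FE8. The order of the 6 genes depends on the pseudocount: with 16, the brighter Cd9 probe set was at 5.24 in FE8 against 4.76 for Krt8, and Cd24 U49062_at and Spint2 were at 5.23 and 4.97 in 208F against 4.12 for Krt8.

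Krt18, the filament partner of Krt8, was also higher on every treated array, from lower signals. Its brighter probe set (rc_AI072634_at) read 3 in untreated 208F and 116 and 169 after treatment, and 5 in untreated FE8 and 172 and 142 after treatment. The other probe set (X81448cds_at) read 20 against 95 and 79 in 208F, and 17 against 150 and 104 in FE8. The log2 differences were 1.61 ± 0.40 in 208F and 1.68 ± 0.40 in FE8 for the first, and 0.84 ± 0.40 and 1.23 ± 0.40 for the second. Treated Krt18 signals remained low on each array, at percentiles 10.1 to 24.4, while treated Krt8 stood at percentiles 89.5 to 92.3, and levels of different probe sets cannot be compared as amounts of RNA.

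Spint2, the protease inhibitor, had a signal of 5 in untreated 208F and 706 and 584 after treatment, and of 50 in untreated FE8 and 554 and 807 after treatment. The treated arrays of the lines overlapped, and both untreated arrays were below 64. The log2 difference was 3.36 ± 0.37 in 208F and 2.69 ± 0.37 in FE8.

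The 3 probe sets of Cd24 moved the same way. U49062_at read 10 in untreated 208F against 962 and 957 treated, and 68 in untreated FE8 against 1315 and 1745 treated. U49062_g_at, from the same GenBank record and therefore no independent reading, gave 2 against 348 and 764 in 208F and 45 against 587 and 1464 in FE8. The probe set rc_AI171462_s_at, whose suffix marks possible sharing between transcripts, gave 3 against 295 and 362, and 10 against 427 and 1138. The duplicates differed by up to 2.20-fold in 208F and 2.67-fold in FE8, with FE8 treated replicate 2 the higher in each probe set. The log2 differences ranged from 2.55 ± 0.50 to 3.79 ± 0.33 in 208F and from 3.19 ± 0.54 to 3.58 ± 0.33 in FE8.

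Epcam, like Krt18, stayed low in treated 208F. Its signal was 6 in untreated 208F and 92 and 45 after treatment, the second of these still below 64, and 9 in untreated FE8 and 335 and 199 after treatment. Treated FE8 lay above treated 208F without overlap. The log2 difference was 0.90 ± 0.43 in 208F and 2.15 ± 0.43 in FE8.

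Cd9, the tetraspanin, showed the widest gap between the lines after treatment. Its brighter probe set (X76489cds_g_at) read 12 in untreated 208F and 221 and 253 after treatment, and 18 in untreated FE8 and 1018 and 1584 after treatment. The second probe set from that record (X76489cds_at) read 63 against 368 and 242, and 79 against 871 and 1285. The log2 differences were 1.98 ± 0.39 in 208F and 4.03 ± 0.39 in FE8 for the first and 1.52 ± 0.39 and 2.97 ± 0.39 for the second.

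**Figure D1:**
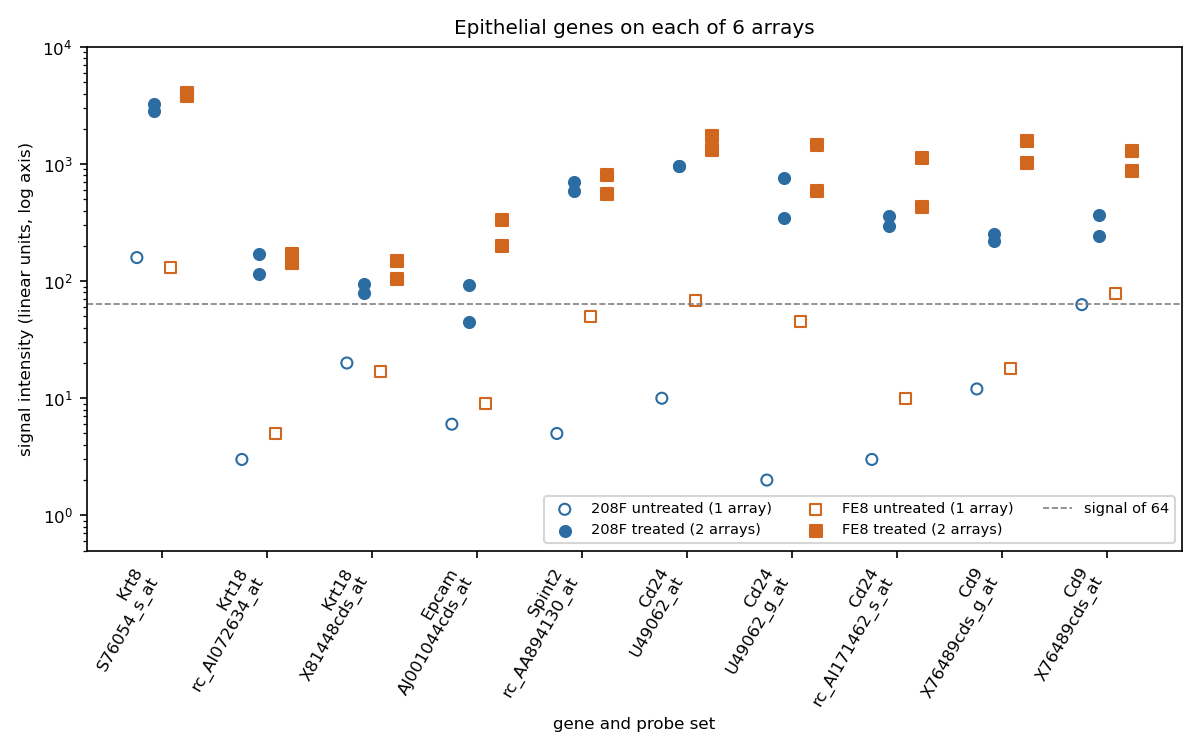
Signal intensity (log axis) of the 10 probe sets of the 6 genes on each array, open symbols untreated and filled symbols treated, circles 208F and squares FE8, with a dashed line at 64. Filled symbols lie above the open symbol of their line for every probe set, and Cd9 shows the largest distance between treated FE8 and treated 208F.

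All 10 probe sets were thus higher on both treated arrays than on the untreated array in each line, a pattern held by 28.5% of all probe sets. Since the genes are taken to have been chosen on this contrast, nothing follows from that count. In the fit over all probe sets, 5.19% passed an adjusted p of 0.05 for the drug difference in 208F and 8.16% in FE8. The median drug difference over the 6 genes, taking the brightest probe set of each, was 2.67 in 208F and 3.13 in FE8, against 0.11 and 0.08 over all probe sets. Of the 10 probe sets, 7 were below 64 on both untreated arrays and 6 of these 7 exceeded 64 on all 4 treated ones. Over the whole array 440 probe sets were below 64 on both untreated arrays, and 89 of them, or 20.2%, exceeded 64 on all 4 treated ones.

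**Figure D2:**
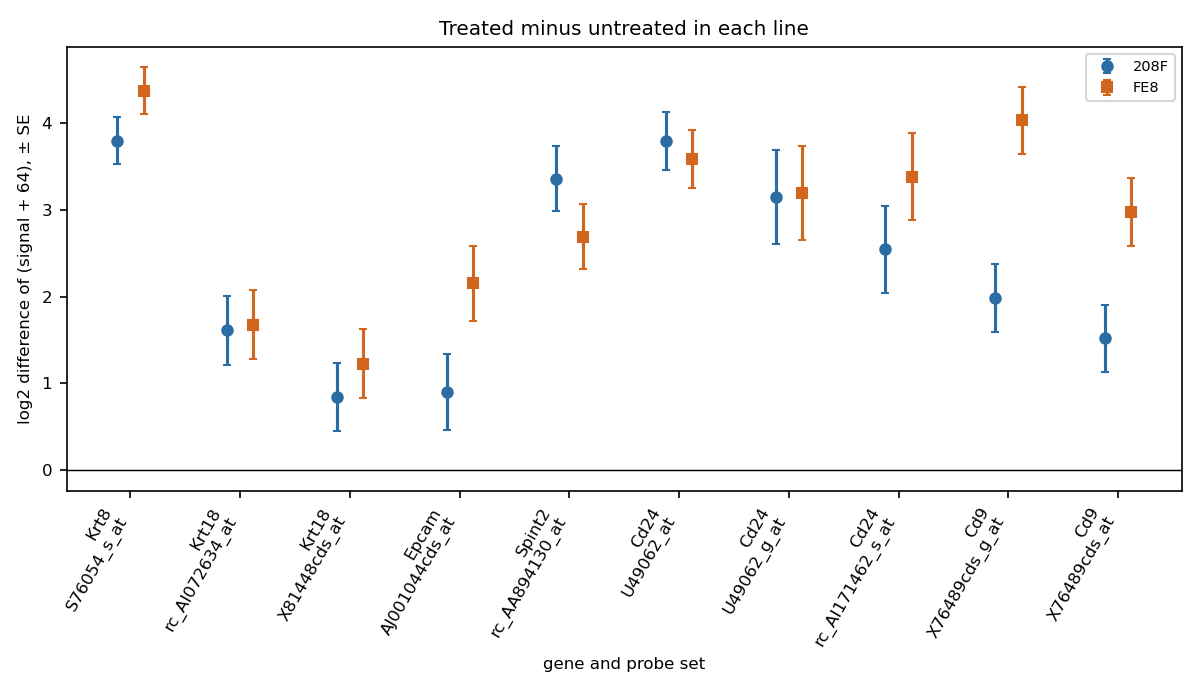
Log2 difference of treated minus untreated (signal plus 64) for each probe set in 208F (circles) and FE8 (squares), with standard errors from the limma fit on 1 untreated and 2 treated arrays per line. Values run from 0.84 for the second Krt18 probe set in 208F to 4.37 for Krt8 in FE8, and the lines lie farthest apart for Cd9.

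The drug differences of the lines were set side by side without a test, since both are taken to have served to choose the genes. FE8 minus 208F was 2.04 ± 0.55 and 1.46 ± 0.55 for the Cd9 probe sets, 1.25 ± 0.61 for Epcam, 0.57 ± 0.38 for Krt8, 0.06 ± 0.56 and 0.38 ± 0.56 for Krt18, -0.67 ± 0.53 for Spint2, and -0.21 ± 0.47, 0.05 ± 0.76 and 0.83 ± 0.71 for Cd24. The sign held in each alternative run for Krt8, Epcam and both probe sets of Cd9. It also held for Krt18 X81448cds_at (0.17 to 0.58) and Cd24 rc_AI171462_s_at (0.18 to 1.48). The sign turned with the handling of low signals for Spint2 (-1.59 to 0.06 over the alternatives) and for Cd24 U49062_at (-1.04 to 0.57) and U49062_g_at (-0.93 to 0.85). For U49062_g_at it also turned under quantile normalization (-0.1) and without 208F treated replicate 1 (-0.46) or FE8 treated replicate 2 (-0.57). The first Krt18 probe set ran from -0.12 to 0.25. Sessions that acted alike on both lines on the log2 scale would still not fully cancel in these values. Of the treated 208F arrays, replicate 1 was on lot 2 and replicate 2 on lot 3, while both treated FE8 arrays were on lot 3. The part of the sessions in these values was not tested.

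The comparison of untreated FE8 with untreated 208F (1 array each, both of lot 1) asked whether the genes differed between the lines before treatment. None of the 10 probe sets passed, by limma with p-values adjusted (Benjamini-Hochberg) across the 4818 probe sets, where 5.92% of all probe sets did. At an unadjusted p under 0.05 the count was also 0, the smallest being 0.051 for Cd24 U49062_at. The log2 difference of FE8 minus 208F was 0.83 ± 0.38 for that probe set (adjusted p = 0.322, 95% interval 0.00 to 1.67), 0.72 ± 0.43 for Spint2 (-0.23 to 1.68) and -0.19 ± 0.31 for Krt8 (-0.88 to 0.50). For Krt18, Epcam and Cd9 it lay between -0.05 and 0.17, with 95% intervals that lay within -1.06 to 1.17.

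The pseudocount of 64 holds such differences down where both signals are low. Cd24 read 68, 45 and 10 in untreated FE8 and 10, 2 and 3 in untreated 208F, and with a pseudocount of 16 the first of these probe sets passed (1.69, adjusted p = 0.0457). Spint2 read 50 against 5 and did not pass at any setting tried. Each arm here is a single array, so the error comes from the treated duplicates.

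Under the drug, FE8 (n = 2) was compared with 208F (n = 2), and here Cd9 was higher in FE8 by both probe sets. The lower FE8 array was 4.02 times the higher 208F array for X76489cds_g_at and 2.37 times for X76489cds_at. The log2 difference was 2.15 ± 0.32 (adjusted p = 0.00142) and 1.63 ± 0.32 (adjusted p = 0.00874) by limma, the 33rd and 75th highest of 4818. Within lot 3, that is without 208F treated replicate 1, the values were 2.07 and 1.88. Leaving out an array leaves a single treated array in that line, whose spread is then assumed to equal that of the other line's duplicates. Both calls were lost without FE8 treated replicate 2 (1.85 and 1.36, adjusted p = 0.0635 and 0.2), and that of the second probe set without FE8 treated replicate 1 (1.89, adjusted p = 0.0582). With signals below 64 set to 64 in place of the pseudocount, neither passed (2.42 and 1.83, adjusted p = 0.0853 and 0.165).

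Epcam was also higher in treated FE8, by 1.31 ± 0.36, just past the threshold (adjusted p = 0.0498). Within lot 3, with 1 array of treated 208F, it was 1.57. It no longer passed when 208F treated replicate 2 (1.05, adjusted p = 0.15), FE8 treated replicate 1 (1.01, adjusted p = 0.355) or FE8 treated replicate 2 (1.61, adjusted p = 0.125) was left out. It did not pass with a pseudocount of 16 (1.76, adjusted p = 0.0987) or with that floor of 64 (1.75, adjusted p = 0.165) either, and a pseudocount 4 times as large as the main one lowered it to 0.68 (adjusted p = 0.0361).

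The other 4 genes did not pass in this comparison. Cd24 was at 0.63 ± 0.27, 0.77 ± 0.44 and 0.97 ± 0.41 (adjusted p = 0.255, 0.455 and 0.24), with 95% intervals of 0.03 to 1.22, -0.20 to 1.74 and 0.08 to 1.87. U49062_g_at passed without 208F treated replicate 2 (1.28, adjusted p = 0.03). Krt8 was at 0.38 ± 0.22 (-0.11 to 0.87), Krt18 at 0.11 ± 0.33 and 0.33 ± 0.32, and Spint2 at 0.05 ± 0.31 (-0.62 to 0.73). The intervals for Krt8 and Spint2 leave out a difference as large as that of Cd9, and those for Cd24 do not leave out differences near 1.

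In all, 3 of the 10 probe sets (Epcam and both of Cd9) were called, all higher in FE8, against 7.08% of all probe sets called in either direction and 3.42% called higher. Both treated FE8 arrays were above both treated 208F arrays for 7 of the 10, against 20.7% of all probe sets, the exceptions being Spint2, rc_AI072634_at of Krt18 and U49062_g_at of Cd24. The median of the 6 brightest probe sets was 0.50, against 0.00 over all, and 0.09 without the drug, against 0.02 over all. Probe sets of the same gene are not independent readings, and both of Cd9 come from the same GenBank record. Neither count is therefore one of separate genes, and the calls stand for Epcam and Cd9 alone. The arrays behind these counts and medians also entered the drug differences taken to have chosen the genes.

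**Figure D3:**
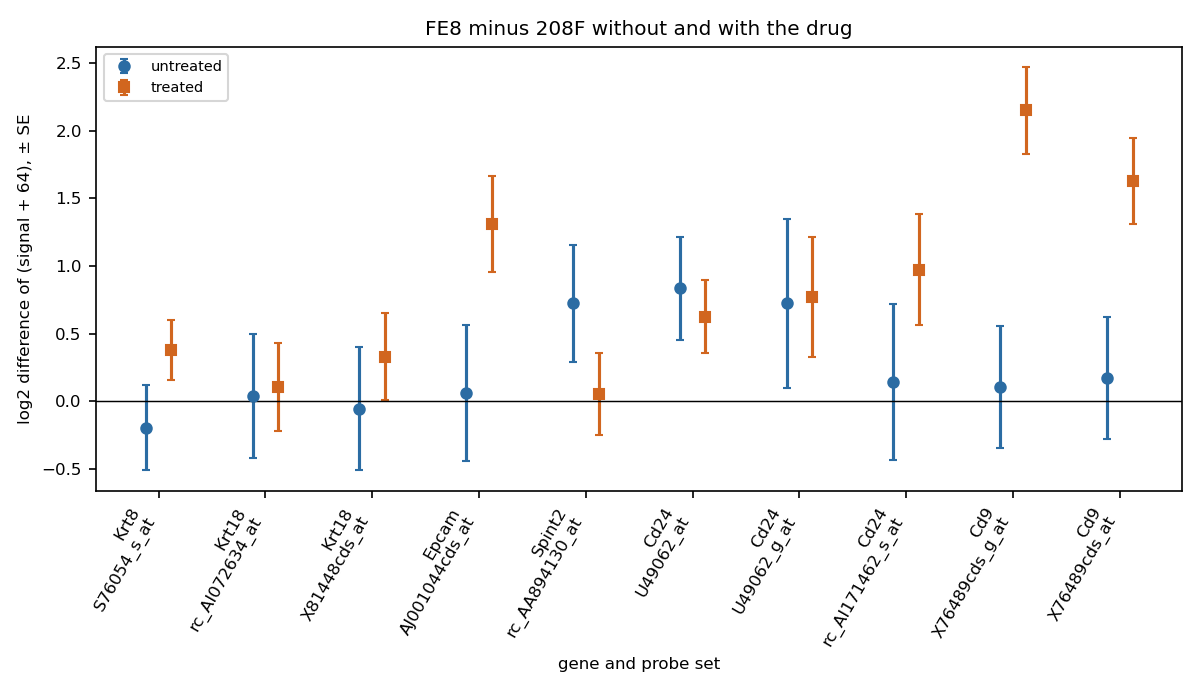
Log2 difference of FE8 minus 208F (signal plus 64) for each probe set on untreated arrays (circles, 1 array per line) and treated arrays (squares, 2 per line), with standard errors from the limma fit. Both Cd9 probe sets and Epcam move from near 0 untreated to 2.15, 1.63 and 1.31 treated, while Spint2 goes from 0.72 to 0.05.

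The related genes of the same structures were then counted in the same fit, by the brightest probe set of each. The lists were chosen with earlier results of these data known. The drug p-values of list genes, here, below and for Flt1 above, are therefore not independent of that choice. Drug and session also cannot be told apart in them. Of 23 intermediate filament and linker genes, 9 were measured. The drug difference passed for the muscle filament Des in 208F (3.33 ± 0.54, adjusted p = 0.0051, signals of 25 against 553 and 1241) and the neuronal filament Prph in FE8 (1.78 ± 0.38, adjusted p = 0.016), while the nuclear lamin Lmna was lower in 208F (-1.54 ± 0.27, adjusted p = 0.0067). Des also stood higher in treated FE8, at 1.96 ± 0.54 (adjusted p = 0.051 by limma). Prph did so in 208F, at 1.43 ± 0.38 (adjusted p = 0.057 by limma), and neither value passed. The other 7 in 208F and 8 in FE8 did not pass, Vim being at -0.58 and -1.02 and Krt10 at -0.43 and -0.07. Nes (nestin) was lower in FE8 than in 208F both untreated (-2.36 ± 0.41, adjusted p = 0.0057) and treated (-1.45 ± 0.29, adjusted p = 0.01). The medians of the list were -0.43 in 208F and -0.22 in FE8, and 6 of the 9 genes in each line were below 0, where the keratin pair was above it.

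Of 27 epithelial junction genes, 8 were measured, and their drug differences were smaller than those of Krt8, Spint2 and Cd24. In 208F 1 was higher, the hemidesmosome integrin subunit Itgb4 (1.81 ± 0.38, adjusted p = 0.019), and in FE8 2 were, the gap junction protein Gja1 (1.61 ± 0.37, adjusted p = 0.023) and plakoglobin, Jup (1.19 ± 0.32, adjusted p = 0.043). The tight junction claudin Cldn7 read 84 against 157 and 128 in 208F and 86 against 196 and 170 in FE8 and did not pass, nor did the mucin Muc1. The medians were 0.51 and 0.65. Between the lines, Cdh17, a cadherin of intestinal epithelium, was higher in FE8 untreated (3.33 ± 0.45, adjusted p = 0.0012) and treated (3.31 ± 0.32, adjusted p = 6.3e-05), with signals of 838, 715 and 951 in FE8 and 13 to 41 in 208F, and its drug difference in FE8 was -0.02. Itgb4 was higher in FE8 in both comparisons as well, and Tjp1, a tight junction scaffold, was lower under the drug (-0.93 ± 0.23, adjusted p = 0.033).

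Spint2 belongs with the proteases and receptors of hepatocyte growth factor, of which 6 of 19 were measured. Plau, the urokinase, which can activate that growth factor, was higher after treatment in 208F (1.89 ± 0.35, adjusted p = 0.01) and FE8 (2.52 ± 0.35, adjusted p = 0.0016), with signals of 48 against 347 and 356, and 61 against 635 and 676. Met, the receptor, stood at 0.62 and 1.22 and Hgf, the ligand, at 0.32 and 0.11, and neither passed. Plat, the tissue plasminogen activator, was higher in FE8 untreated (2.50 ± 0.51, adjusted p = 0.013) and treated (1.77 ± 0.36, adjusted p = 0.011).

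Of 18 tetraspanins and partners beside Cd9, 10 were measured. None passed for the drug difference in either line by limma at adjusted p under 0.05. At an unadjusted p under 0.05 there were 2 in 208F and 1 in FE8, and the medians were 0.44 and -0.05. The partner Hbegf stood at 1.42 ± 0.40 in FE8 (adjusted p = 0.051 by limma, signals of 122 against 452 and 418). In 208F it stood at 0.55 ± 0.40. Between the lines Cd37, a leukocyte tetraspanin, was higher in FE8 untreated (2.21 ± 0.44, adjusted p = 0.012) and treated (1.84 ± 0.31, adjusted p = 0.0035), as was Cd82 (1.15 ± 0.30 and 0.85 ± 0.21, adjusted p = 0.05 and 0.036, the first just under the threshold before rounding). In treated FE8 minus treated 208F, Cd81 and Cd63 were at 0.27 and 0.06 and Itgb1, an integrin subunit that tetraspanins bind, at 0.01.

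**Figure D4:**
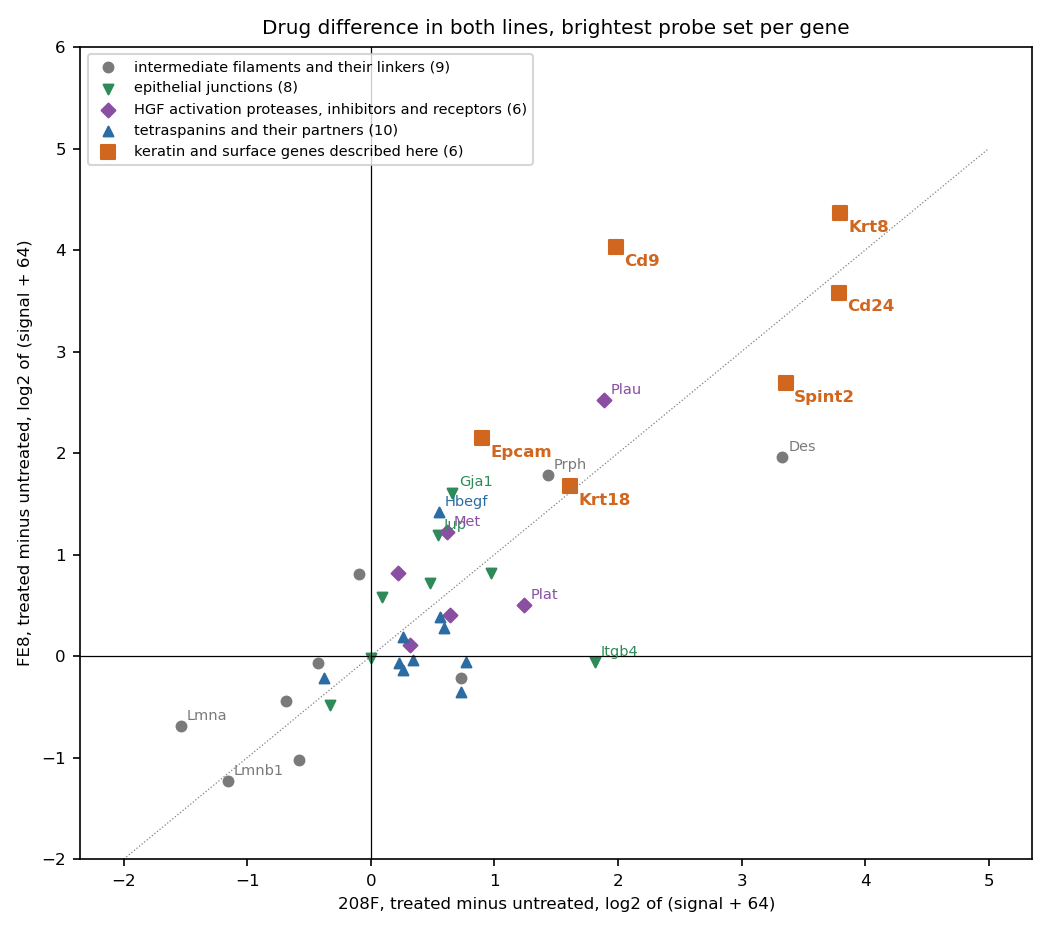
Treated minus untreated log2 difference (signal plus 64) in 208F (horizontal) and FE8 (vertical) for the 6 genes (large squares) and for measured filament, junction, growth factor activation and tetraspanin genes, brightest probe set each, with a dotted line where both lines are equal. Cd9 lies above the dotted line at 1.98 and 4.03, while the 10 tetraspanins and partners have medians of 0.44 and -0.05. Among these, Hbegf also lies above it, at 0.55 and 1.42.

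Among regulators of epithelial and mesenchymal state, 1 of 20 epithelial factors was measured. Klf4, an epithelial zinc finger factor, was higher in untreated FE8 than in untreated 208F (3.14 ± 0.59, adjusted p = 0.0089) and higher after treatment in 208F (3.0 ± 0.51, adjusted p = 0.0065), with signals of 45 against 443 and 1439 in 208F and of 900 against 1032 and 1346 in FE8. Of 16 mesenchymal factors and their Id partners, 9 were measured, and after treatment 3 were higher and 1 lower in each line. The 3 were Id1, Id2 and Id3, which block basic helix-loop-helix factors, at 1.86, 2.99 and 1.68 in 208F and 2.63, 2.08 and 1.41 in FE8, and the homeobox gene Meox2 was lower at -2.06 and -1.39. Between the lines, Meox2 was lower in FE8 untreated (-3.10 ± 0.42, adjusted p = 0.0012) and treated (-2.43 ± 0.30, adjusted p = 0.00039), and the homeobox gene Alx1 was higher (2.39 ± 0.46 and 3.74 ± 0.33, adjusted p = 0.0098 and 2.9e-05). Zeb1, a repressor of epithelial genes that binds the E-box letters searched above, read 147 against 182 and 163 in 208F and 108 against 197 and 95 in FE8, and did not pass.

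Of the 12 measured fibroblast and mesenchymal markers, 3 were lower after treatment in 208F, namely Acta2 (-2.48 ± 0.36), Col3a1 (-2.17 ± 0.41) and Tagln (-1.58 ± 0.33), with adjusted p = 0.0024, 0.011 and 0.019. In FE8 Col1a2 was lower (-1.93 ± 0.31, adjusted p = 0.0033) and Sparc higher (1.33 ± 0.34, adjusted p = 0.036). The other 9 and 10 did not pass, and the medians were -0.41 and -0.39. Between the lines 6 of the 12 were lower in FE8 in each comparison, led by Col1a1 (-6.84 and -5.22), Tagln (-6.18 and -4.38) and Acta2 (-5.37 and -3.32), with Col3a1 at -3.49 untreated and Col1a2 at -2.80 treated. The hyaluronan receptor Cd44 was higher in treated FE8 (1.66 ± 0.24, adjusted p = 0.0011).

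The profiles of the genes over the 6 arrays were compared by the root mean square difference of centred log2 values. This measure counts the size of a change as well as its shape. Krt8 and Krt18 were 1.17 apart by it, though their Pearson correlation was 0.981. The genes nearest to Krt8 were the cell cycle inhibitor Cdkn1a (0.32), Cd24 (0.38) and the acetylcholine receptor subunit Chrna7 (0.49). Those nearest to Cd24 were Krt8 (0.38), Spint2 (0.40) and the retinoic acid binding protein Crabp2 (0.48), and those nearest to Spint2 were Crabp2 (0.21), Cdkn1a (0.21) and Cd24 (0.40). Krt18 was nearest to Rrad (0.13), Aebp1 (0.14) and Brcc3 (0.18).

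Epcam and Cd9, in contrast, had profiles with a further step in treated FE8. Epcam was nearest to the cyclin Ccnd1 (0.24), the immediate early factor Egr1 (0.28) and Rbp2 (0.29), and Cd9 to the interferon regulatory factor Irf7 (0.41), to the Cd24 probe set rc_AI171462_s_at (0.52) and to Slfn5 (0.54). Among the 6 genes the closest pairs by the brightest probe sets were Krt8 with Cd24 (0.38), Spint2 with Cd24 (0.40) and Krt18 with Epcam (0.57), and the farthest were Krt8 and Epcam (1.29). With 6 arrays in 4 groups, many genes share such a profile, and ranking by Pearson correlation named mostly other genes.

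Krt8 and Krt18 are next to each other on the genome among protein-coding genes and are transcribed away from each other. Of the 5 protein-coding genes on either side of the pair, Tns2 and Igfbp6 were measured. Tns2, a tensin, read 856 against 422 and 467 in 208F and 985 against 284 and 355 in FE8, each treated signal being below the untreated one, and Igfbp6, a binding protein of insulin-like growth factors, read 1166 against 1878 and 1774 in 208F and 2160 against 875 and 1229 in FE8. The higher signals of the keratin pair after treatment were therefore not shared by these neighbours in both lines. Beside Epcam, Calm2 stood at 0.51 and 0.30, and near Cd24, Bend3 stood at 0.71 and 0.35 in 208F and FE8.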

How the data were processed

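The values the authors deposited are linear signal intensity in whole numbers, 1 per probe set. MAS5 is named in the submitters' processing notes, with no settings. The table held 4847 probe sets, of which 29 controls were left out, and the filter behind it is not given in the sources used here. Probe sets were named through Entrez identifiers with RefSeq's GRCr8 gene table, used for names and gene order: 3956 had 1 gene, 207 several and 655 none.

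Signals were transformed as log2(signal + 64), 64 being the 10th percentile over all tested probe sets and arrays. Means of the 4 groups were estimated in R 4.3.3 using limma 3.58.1 (lmFit, eBayes with an intensity trend, 2 residual and 9.02 prior degrees of freedom), 2-sided, with Benjamini-Hochberg adjustment over 4818 probe sets and a threshold of 0.05. The fit was tested on simulated data. Each untreated array stands alone, and its variation was taken to equal that of the duplicates.

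All probe sets of the 6 genes were named. Related genes were named from 12 lists, up to 4 per direction and line comparison past the threshold, and the 3 nearest profiles per gene. List genes named for their drug difference or given only as values, and the genomic neighbours, fall outside that rule and were named after their values were seen. The genes and lists were chosen with earlier results of these data known. Alternatives were other pseudocounts, scalings, a filter on mean signal, no trend, leaving out each treated array, the 4 treated arrays alone, and the replicate number as a block.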

Additional observations from a re-analysis of the deposited data

How the results depend on the processing

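Of the probe sets called over the whole table, the count without the drug (285) ranged from 109 to 541 when 1 treated array was left out, and that under the drug (341) from 96 to 530. The counts of called probe sets of the 6 genes under the drug (3) ranged from 0 to 3 in the same fits, with 1 left without FE8 treated replicate 1 and 0 without FE8 treated replicate 2. The whole-table counts were lowest without an FE8 treated array (109 and 113 without the drug, 136 and 96 under it). Without the drug 0 of the 10 probe sets of the 6 genes were called as reported and under each alternative run except a pseudocount of 16, where 1 was. The median drug difference over the 6 genes was 3.65 in 208F and 3.82 in FE8 with a pseudocount of 16, 1.33 and 2.03 with a pseudocount 4 times the main one, and 3.57 and 3.80 among probe sets with a mean signal of at least 200, which leaves out Krt18 and Epcam.

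A floor, chosen after seeing the data, set signals below 64 to 64. It gave 6 calls without the drug and 112 under it, 0 calls among the 6 genes under the drug and a median drug difference of 3.85 in FE8. It leaves 107 probe sets with no spread between duplicates, which the fit uses to set its error, and the cause of the lost calls was not tested.

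Of 87 values of single probe sets under the drug with no treated array left out, 83 stayed on their side of the threshold, and 33 of 40 with a treated array left out. Without the drug these were 76 of 77 and 40 of 40. No called difference changed direction. The replicate numbers share only a number, with deviations correlated at 0.319 over 2 pairs. With the replicate block 285 and 325 probe sets were called and 0 and 3 of the 6 genes' probe sets, and the block changed no call of theirs. With 7 of the 10 probe sets below 64 on both untreated arrays, ratios to the untreated signal have no firm base.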
